A study of Mus musculus with 4 samples.

Results

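IGHM, IGHD, IGHG1, IGHG2, IGHG3, IGHG4, IGHA1, IGHA2 and IGHE encode the constant regions of the human immunoglobulin heavy chain, and JCHAIN encodes the joining chain of polymeric immunoglobulin. These 10 members among 33538 human genes were read in human cells taken from humanised mice. A barcode counted as human when over 50% of its unique molecular identifiers (UMIs, each 1 counted transcript) fell on human genes. Among human barcodes, plasma cells carried at least 2 MZB1 UMIs and at least 1 TNFRSF17 UMI. B cells carried at least 1 MS4A1 and at least 1 CD79A UMI, no CD3D, CD3E or CD3G UMI, and did not meet the plasma cell rule. T cells carried at least 2 CD3 UMIs with no MS4A1 or CD79A UMI, and gave the background of each member, since they do not transcribe rearranged heavy chain genes at the level of B cells. At least 1 UMI was found for 10 of the 10 members in human barcodes of naive, sham and SCI blood, and for 5 of 10 in SCI cord, where IGHG1, IGHG2, IGHG3, IGHG4 and IGHA2 had 0.

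The study asked how spinal cord injury (SCI) changes human leukocytes, in blood and on entry into the lesion, in mice that carry a human immune system. Hosts in all groups were NOD.Cg-Prkdcscid mice with the IL2rgtm1Wjl allele and the transgene Tg(CMV-IL3,CSF2,KITLG)1Eav/MloySzJ, in which the CMV promoter drives the human cytokines, and had an age label of 15 weeks. Blood came from naive males, from sham males 7 days after T9 laminectomy, and from pooled males and females 7 days after T9 contusion, which also gave the cord library. Live huCD45+ cells were sorted and run on a 3′ droplet chemistry, with 1 library per condition.

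The naive, sham, SCI blood and SCI cord libraries held 8124, 6962, 7513 and 231 barcodes and 34161760, 36007208, 36487994 and 4206461 UMIs. Human barcodes numbered 6713 (82.6%), 4972 (71.4%), 6283 (83.6%) and 138 (59.7%), 18106 together, with a median of 3656, 5201, 4634 and 8569.5 human UMIs. Of these 18106, 22 cell barcodes occurred in more than 1 library (6 in naive and sham, 10 in naive and SCI blood, 5 in sham and SCI blood, 1 in SCI blood and cord). Without them the B cells numbered 1187, 565, 888 and 8 and the plasma cells 381, 7, 12 and 0. In naive, sham and SCI blood the 361, 198 and 316 human barcodes with the highest Scrublet scores were marked as likely doublets. These numbers were set beforehand by an assumed doublet rate of 0.8% per 1000 barcodes, and the cord was not scored. The marks fell on 4, 7 and 7 B cells of the blood libraries (0.336, 1.23 and 0.785%) and on 16, 3 and 4 plasma cells (4.20, 42.9 and 33.3%), and marked barcodes stayed in the values below.

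Class switching joins a rearranged variable region to a downstream constant gene by deletion of the DNA between them, so a B cell that begins with IgM and IgD can later make IgG, IgA or IgE. Plasma cells transcribe the chosen heavy chain at far higher rates than B cells do, and secreted IgM pentamers and IgA dimers are closed by the J chain. A UMI of a constant gene in any cell can also come from free RNA in the suspension.

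B cells made up 1190 of 6713 human barcodes in naive blood (17.7%, 95% interval 16.8 to 18.7%), 568 of 4972 in sham blood (11.4%, 10.6 to 12.3%), 892 of 6283 in SCI blood (14.2%, 13.3 to 15.1%) and 8 of 138 in SCI cord (5.80%, 2.54 to 11.1%). Naive blood was highest, and the 3 blood intervals did not overlap. Plasma cells were 381 in naive blood (5.68%, 5.13 to 6.26%), 7 in sham blood (0.141%, 0.0566 to 0.290%) and 12 in SCI blood (0.191%, 0.0987 to 0.333%), and 0 of 138 in cord (upper limit 2.17%). With at least 5 MZB1 and 2 TNFRSF17 UMIs the blood shares were 4.90, 0.0402 and 0.0477%, so that the sham and SCI shares depend on the rule. Both cell rules were met by 46, 5, 10 and 0 barcodes, which were counted as plasma cells. Intervals of shares are Clopper-Pearson, those of levels are Poisson, and each covers counting error only, since cells of 1 library are not replicates. The upper limit of a share at 0 instead takes 3 cells as the most that a count of 0 allows. Median human UMIs were 3569, 5738, 4885.5 and 13551 in B cells, 13290, 14611 and 7950 in blood plasma cells, and 3560, 5081, 4600 and 7966.5 in the 4078, 3445, 4213 and 66 T cells.

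The class labels were checked with whole marker lists, as counts per 1000000 human UMIs (CPM) summed over the list. CPM count 3′ ends and are not divided by gene length, so levels of different genes compare on that scale. The genes of the class rules (MS4A1, CD79A, MZB1, TNFRSF17 and the CD3 genes) check nothing in these lists. Without them the 9 other B markers summed to 11095, 10879, 10570 and 8788 CPM in B cells, the 8 other plasma markers to 3420, 2510 and 2285 in blood plasma cells and to 146, 155, 143 and 285 in B cells, and the 10 other T markers to 4161, 4166, 3875 and 4182 in T cells. With the rule genes, all 11 B markers were found in B cells of each library, with sums of 15654, 15507, 14771 and 11678 CPM, and HLA-DRA was the most abundant (4720, 4538, 4255 and 3504). The 13 T markers summed to 161, 176, 170 and 161 CPM in B cells and to 6606, 6538, 6015 and 6013 in T cells, with the CD3 genes at 0 in B cells by the rule, while B markers in T cells, with MS4A1 and CD79A at 0 by the rule, summed to 491, 500, 378 and 2554. Plasma markers in naive plasma cells summed to 6063 CPM with 10 of 10 present and MZB1 at 2272. In sham and SCI plasma cells 9 of 10 were present, with SDC1 at 0, sums of 4285 and 4393, and MZB1 at 1693 and 1850. In naive plasma cells the B list summed to 882 CPM and the T list to 165, against B list sums of 4696 and 7997 and T list sums of 52.9 and 265 in sham and SCI plasma cells. Plasma markers in B cells summed to 324, 356, 314 and 591 CPM, with 9, 8, 9 and 6 of 10 present. Of the other lists in B cells, monocyte markers summed to 447, 271, 346 and 234 CPM (7, 8, 6 and 4 of 8 present), led by S100A9 in naive and sham, S100A8 in SCI blood and CST3 in cord. Basophil or mast markers summed to 5.92, 24.5, 74.8 and 650 CPM (5, 7, 8 and 1 of 8), led by MS4A2 in blood and by CLC alone in cord, where the same list reached 2067 CPM in T cells. Plasmacytoid dendritic markers summed to 1189, 1214, 1103 and 1080 CPM, led by SPIB in blood (518, 520 and 465) and TCF4 in cord (394). Natural killer markers summed to 43.9, 19.0, 16.4 and 182 CPM, led by TYROBP in each library (168 in cord). Erythroid markers summed to 0.439, 0, 0.425 and 0.

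**Figure D1:**
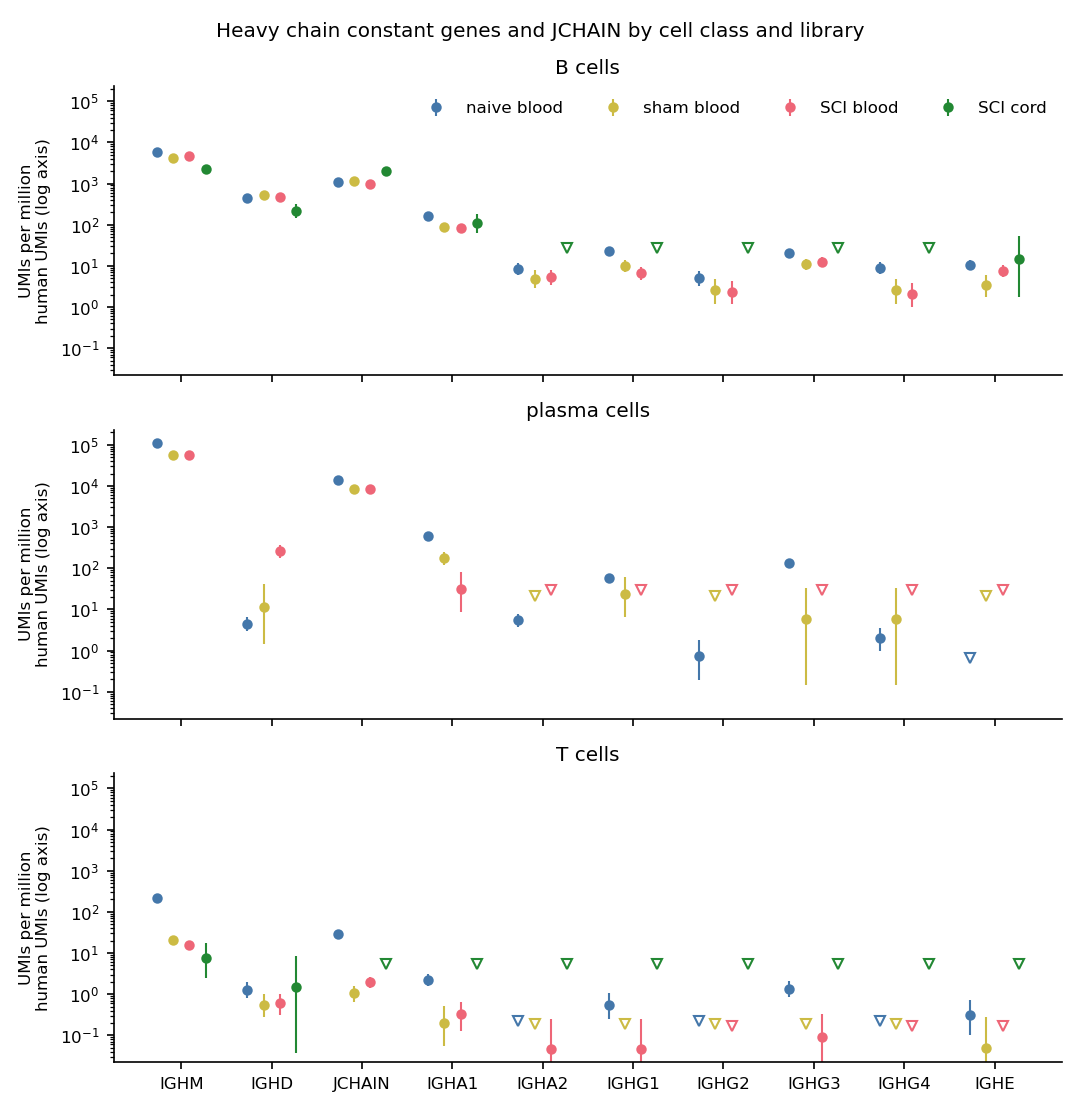
Level of the 10 members in B cells, plasma cells and T cells of each library, in CPM with Poisson intervals. Open triangles mark the upper limit where a member had 0 UMIs.

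IGHM encodes the µ chain of IgM, the isotype of unswitched B cells. In B cells it stood at 5688 CPM in naive blood (5619 to 5757), 4175 in sham blood (4107 to 4243), 4648 in SCI blood (4587 to 4710) and 2263 in cord (2018 to 2529). Naive blood was highest and cord lowest, with no overlap among the 4 intervals. The order of sham and SCI blood rests on few cells. Their log2 ratio, SCI to sham, turned from 0.15 to −0.02 without B cells of 100 or more IGHM UMIs. The totals depend on a few cells: 1, 1 and 2 blood B cells with at least 1000 IGHM UMIs held 4.49, 7.05 and 18.1% of the IGHM UMIs of their library's B cells. The median B cell held 16, 21, 19 and 40.5 IGHM UMIs, so that the median was lowest in naive blood, where cells were shallowest. IGHM was found in 99.9, 100 and 100% of blood B cells before thinning. After each cell was thinned to 1000 human UMIs, to set cells of different depth on 1 scale, the shares were 96.4% (95.1 to 97.4%), 96.1% (94.2 to 97.6%) and 95.6% (94.1 to 96.9%) of 1183, 568 and 891 blood B cells, with overlapping intervals, and 8 of 8 in cord.

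IGHD encodes the δ chain, spliced from the same primary transcript as µ in mature B cells. Its level in B cells was 452 CPM (432 to 472) in naive blood, 531 (507 to 555) in sham, 483 (464 to 504) in SCI blood and 219 (148 to 313) in cord. Sham blood was highest, apart from the other intervals, and cord lowest. An IGHD UMI was found in 70.3, 86.3, 85.0 and 75% of B cells before thinning. After thinning the shares were 36.4% (33.7 to 39.2%), 39.8% (35.7 to 43.9%), 39.4% (36.2 to 42.7%) and 37.5%, with overlapping intervals. Per 100 IGHM UMIs, B cells held 7.94 IGHD UMIs (7.59 to 8.31) in naive blood, 12.7 (12.1 to 13.3) in sham, 10.4 (9.96 to 10.9) in SCI blood and 9.68 in cord. The 3 blood intervals were apart, with naive lowest. The median over blood B cells with at least 10 IGHM UMIs (984, 538 and 817 cells) kept that order at 7.69, 11.8 and 10.5.

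JCHAIN, whose product joins IgM and IgA subunits, stood at 1078 CPM (1048 to 1109) in naive B cells, 1170 (1134 to 1207) in sham, 988 (959 to 1016) in SCI blood and 2044 (1811 to 2298) in cord. Cord was highest, and among blood libraries sham was highest and SCI lowest, all apart. The cord value rests on few cells, since 1 of its 8 B cells held 139 of the 280 JCHAIN UMIs (49.6%). Thinned shares of JCHAIN in blood B cells were 53.3% (50.4 to 56.2%), 53.2% (49.0 to 57.3%) and 52.0% (48.6 to 55.3%), overlapping, against 81.2, 87.9 and 83.9% before thinning. JCHAIN was uneven among B cells: those with at least 10 UMIs were 12.3, 26.4 and 16.1% of cells in naive, sham and SCI blood and held 45.1, 64.7 and 53.2% of the B cell JCHAIN UMIs. That cut was on UMIs before thinning, and median B cell depth had the same order (3569, 5738 and 4885.5 human UMIs).

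IGHA1 and IGHA2 encode the α chains of the 2 IgA subclasses. IGHA1 in B cells was 159 CPM (147 to 171) in naive blood, 89.1 (79.4 to 99.6) in sham, 81.0 (73.0 to 89.5) in SCI blood and 109 (61.3 to 181) in cord. Naive blood was above sham and SCI blood, whose intervals overlapped, and the wide cord interval overlapped all 3. After thinning, IGHA1 was found in 15.0% (13.0 to 17.1%), 7.39% (5.38 to 9.86%) and 7.07% (5.48 to 8.96%) of blood B cells, against 36.5, 28.9 and 24.4% before thinning, so that naive was highest on either scale. IGHA2 was lower, at 8.56 CPM (6.08 to 11.7), 4.90 (2.86 to 7.85) and 5.31 (3.44 to 7.84) in blood and 0 in cord, where the upper limit was 26.9. Its blood intervals overlapped.

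The 4 IGHG genes encode the γ chains of the IgG subclasses, and their near-identical sequences leave the split among them, and between IGHA1 and IGHA2, uncertain with 3′ reads. In B cells of naive, sham and SCI blood, IGHG1 was 23.5 (19.2 to 28.4), 10.1 (7.03 to 14.0) and 6.80 CPM (4.65 to 9.60), and IGHG3 was 20.6 (16.7 to 25.2), 11.0 (7.75 to 15.0) and 12.5 (9.54 to 16.2). For IGHG1 and IGHG3 naive blood was highest, with no overlap with sham or SCI, and the latter 2 overlapped. IGHG2 was 5.05 (3.20 to 7.57), 2.60 (1.19 to 4.93) and 2.34 CPM (1.17 to 4.18), and IGHG4 was 8.99 (6.45 to 12.2), 2.60 (1.19 to 4.93) and 2.12 (1.02 to 3.91). Naive was again highest, apart from the others for IGHG4 and overlapping them for IGHG2. Any IGHG UMI was found after thinning in 4.06% (3.01 to 5.34%), 2.46% (1.35 to 4.10%) and 1.23% (0.618 to 2.20%) of blood B cells, with naive and SCI apart. In cord it was found in 0 of 8 B cells (upper limit 37.5%).

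IGHE, which encodes the ε chain of IgE, reached 10.7 CPM (7.95 to 14.2) in naive B cells, 3.46 (1.79 to 6.04) in sham and 7.65 (5.36 to 10.6) in SCI blood. Sham was lowest and apart from naive, but with only IGHM/IGHD B cells the ratio of sham to naive was not past the fold, as given below. In naive blood 20 of the 49 IGHE UMIs (40.8%) lay in 1 B cell, which also held 11 IGHG1, 8 IGHG4 and 5 IGHM UMIs. Cord B cells held 2 IGHE UMIs, both in 1 cell.

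**Figure D2:**
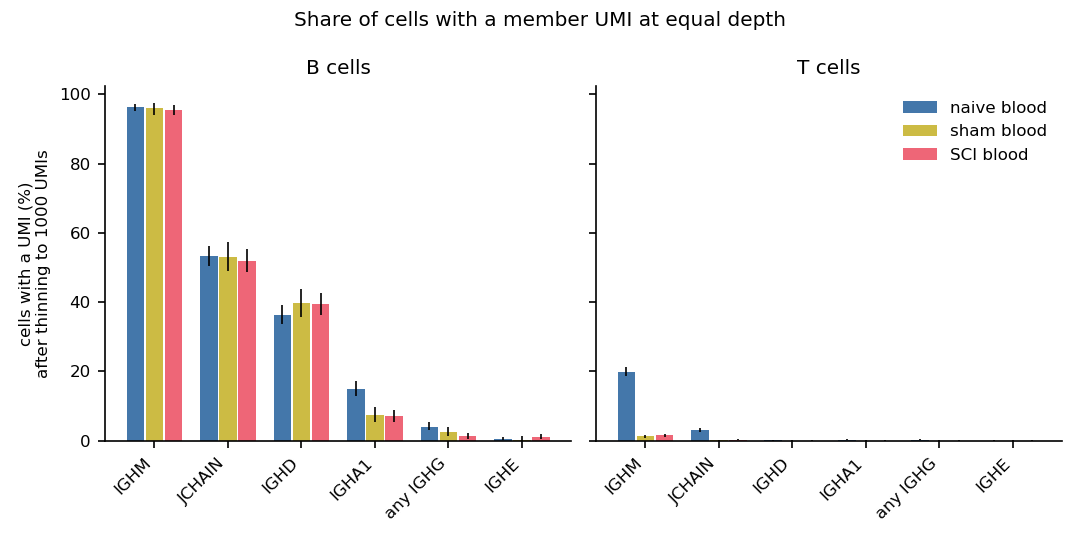
Share of B cells and T cells with a UMI of each member after thinning to 1000 human UMIs, in the 3 blood libraries, with Clopper-Pearson intervals.

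The T cell background differed among libraries. IGHM in T cells was 215 CPM (208 to 222) in naive blood, 20.2 (18.3 to 22.3) in sham, 15.9 in SCI blood and 7.50 in cord. After thinning it was found in 20.0% (18.7 to 21.2%) of 4060 naive T cells, 1.25% (0.905 to 1.68%) of 3443 sham, 1.55% (1.19 to 1.97%) of 4205 SCI blood and 1.56% of 64 cord T cells. Naive blood was highest, with no overlap with sham or SCI blood. Before thinning the shares were 54.0, 8.30, 6.95 and 3.03%. JCHAIN followed the same order in blood, with 126 of 4060 (2.59 to 3.68%), 0.116% and 0.214% of thinned T cells, and 0 of 64 in cord (upper limit 4.69%). IGHA1 was found in 0.197, 0.0290 and 0.0238% of thinned blood T cells, IGHD in 0.148, 0 and 0.0238%, and any IGHG gene in 0.222, 0 and 0.0238%. The 0 of 3443 sham T cells for IGHD and for IGHG has an upper limit of 0.0871%. So B cell shares of IGHM, JCHAIN, IGHD, IGHA1 and IGHG lay above the T cell shares in each blood library.

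The same background appeared in 2 other classes that do not rearrange heavy chain genes. After thinning, IGHM was found in 26.0% (16.5 to 37.6%) of 73 naive basophil or mast barcodes and 15.1% (8.88 to 23.4%) of 106 naive monocytes, overlapping the naive T cell interval in each case. It was found in 0 of 99 and 0 of 59 of these in sham blood, and in 0 of 106 and 0 of 10 in SCI blood. Naive basophil or mast barcodes held IGHM at 208 CPM (156 to 272), which overlaps the naive T cell level. Naive monocytes held 1665 CPM, of which 1032 UMIs (89.1%) were in 1 barcode, which also held 107 JCHAIN UMIs (81.7% of the monocyte total), and 185 CPM without it. The plasmacytoid dendritic rule was met by 3, 5 and 9 blood barcodes, all of which also met the B cell rule, so that they gave no separate background for IGHM.

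B cell levels exceeded T cell levels for each member in each blood library, by a factor that depended on the background. IGHM was 26.4-fold (25.5 to 27.4) higher in naive B cells than in naive T cells, 207-fold (187 to 229) in sham, 292-fold (263 to 325) in SCI blood and 302-fold (128 to 936) in cord. For JCHAIN the factors were 36.6, 1115 and 502 in blood and at least 367 in cord, and for IGHD 351, 965, 813 and 146. IGHA1 was 69.9-fold, 446-fold and 253-fold higher in blood, and at least 17.5-fold in cord. In naive blood IGHG1 was 42.6-fold and IGHG3 15.3-fold higher in B cells, while IGHG2 was at least 20.6-fold, IGHG4 at least 38.0-fold and IGHA2 at least 36.1-fold higher. Each such bound is the lower limit of the interval, given where T cells held 0 UMIs. IGHE was 35.1-fold higher in naive B cells, 69.2-fold in sham (10.2 to 2959, 1 T cell UMI) and at least 43.0-fold in SCI blood. The lowest factor in naive blood was that of IGHG3, and IGHM, JCHAIN, IGHD and IGHA1 each had their lowest blood factor in naive blood.

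Plasma cells of naive blood were dominated by IGHM. It reached 112403 CPM (112124 to 112683), with a median of 1437 UMIs per cell (quartiles 1015 and 2135) and up to 5802, and made up 99.3% of the 625916 heavy chain UMIs of these cells. IGHM made up 89.2% of the 29062 heavy chain UMIs of naive B cells, ahead of IGHD (7.08%) and IGHA1 (2.49%). JCHAIN in naive plasma cells was 14163 CPM (14064 to 14263), with a median of 173 UMIs (quartiles 112 and 269). IGHD fell to 4.52 CPM (2.93 to 6.68), found in 4.20% of naive plasma cells before thinning and 0.525% after it. IGHM and JCHAIN were each found in 99.0% of thinned naive plasma cells, IGHA1 in 21.8% (17.7 to 26.3%) and any IGHG gene in 1.84%. Members made up a median of 12.1% of the UMIs of a naive plasma cell (up to 45.6%), against 0.636, 0.554, 0.531 and 0.470% in B cells of the 4 libraries.

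Much of the remaining heavy chain RNA of naive plasma cells lay in few cells. IGHA1 stood at 618 CPM, with 59.3% of its UMIs in 2 cells, IGHG3 at 137 CPM, with 79.5% in 1 cell, and IGHG1 at 58.8 CPM, with 84.0% in 1 cell. IGHA2 (5.43 CPM), IGHG4 (1.99) and IGHG2 (0.724) were near the floor, and IGHE was found in 0 of 381 cells (upper limit 0.787%). IGHA1 UMIs were nonetheless found in 76.4% of naive plasma cells before thinning.

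Sham and SCI blood held few plasma cells, and part of them had little heavy chain RNA. Pooled over all cells that met the rule, IGHM was 55486 CPM (54372 to 56617) in sham and 56162 in SCI plasma cells, both below naive. Pooled JCHAIN was 8487 (8055 to 8937) and 8423. These sums include cells low in heavy chain RNA and 1 sham cell of 75348 human UMIs with 67 MS4A1 UMIs. Members made up a median of 1.72% (up to 14.7%) of the UMIs of a sham plasma cell. The median was 0.985% (up to 19.5%) in SCI and 12.1% (up to 45.6%) in naive plasma cells. Whether the lower pooled level holds for the cells rich in IGHM was not tested. By IGHM count the 7 sham cells held 4445, 2746, 1138, 1037, 32, 22 and 20 UMIs, with 389, 749, 129, 169, 4, 1 and 3 JCHAIN UMIs. The 12 SCI cells held 2203, 2058, 1918, 533, 75, 68, 34, 30, 24, 14, 13 and 11 IGHM UMIs, with 502, 215, 268, 12, 5, 10, 9, 0, 22, 1, 1 and 2 of JCHAIN. Under 100 heavy chain UMIs were held by 7 of 381 naive, 3 of 7 sham and 8 of 12 SCI cells that met the plasma cell rule. Of these low cells 6, 3 and 8 also held MS4A1, and their median JCHAIN was 3, 3 and 3.5 UMIs. IGHD was found at 2 UMIs in sham and 32 in SCI plasma cells, and IGHA1 at 30 UMIs in sham, 25 of them (83.3%) in 1 cell, and 4 in SCI blood. XBP1, a driver of secretion, was present in 96.9% of naive plasma cells (829 CPM), in 4 of 7 sham (658) and in 4 of 12 SCI plasma cells (813).

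**Figure D3:**
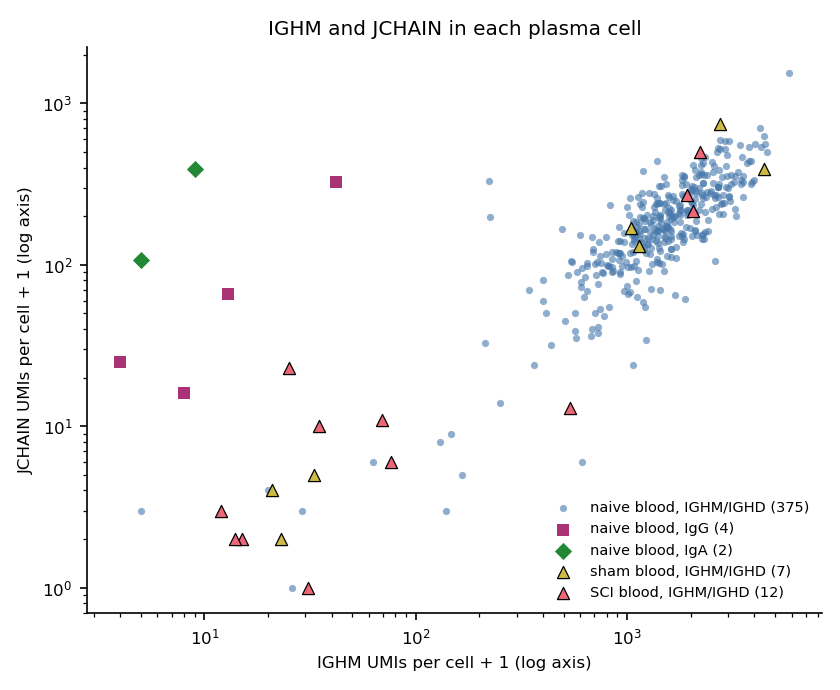
IGHM against JCHAIN UMIs in each plasma cell of the 3 blood libraries, by assigned isotype.

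JCHAIN was next set against IGHM within each class, as JCHAIN UMIs per 100 IGHM UMIs. In naive blood the value was 19.0 (18.4 to 19.5) in B cells, 12.6 (12.5 to 12.7) in plasma cells, 13.7 (12.4 to 15.1) in T cells, 13.0 (4.98 to 28.6) in basophil or mast barcodes and 11.3 (9.37 to 13.6) in monocytes. The T cell and basophil or mast intervals overlapped the plasma cell interval, and the T cell interval lay below that of B cells. The monocyte value rests on 1 barcode, without which it was 19.0 (11.8 to 29.6), an interval that overlaps those of plasma cells and of B cells. IGHD per 100 IGHM UMIs in naive T cells was 0.598 (0.370 to 0.916), between 0.00402 in plasma cells and 7.94 in B cells. IGHA1 per 100 IGHM was 1.05 (0.741 to 1.46) in naive T cells, against 0.550 in plasma cells and 2.79 in B cells. The source of the naive background was not tested. In sham blood JCHAIN per 100 IGHM was 28.0 (27.1 to 29.0) in B cells, 15.3 (14.5 to 16.2) in plasma cells and 5.20 (3.18 to 8.05) in T cells, and in SCI blood 21.2 (20.6 to 21.9), 15.0 (14.0 to 16.0) and 12.4 (8.78 to 17.0). B cells thus held more JCHAIN per IGHM than plasma cells in each blood library. The per-cell medians, over cells with at least 10 IGHM UMIs, were 12.5, 21.7 and 15.8 in B cells and 11.9, 12.5 and 12.2 in plasma cells, with the smallest gap in naive blood.

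A cell was assigned to a switched isotype when IgG, IgA or IgE genes had at least 3 UMIs, more than IGHM and IGHD together and more than each other switched class, and to IGHM/IGHD when these had at least 3 UMIs and more than all switched genes. In naive blood 1184 of 1187 assigned B cells were IGHM/IGHD (99.7%, 99.3 to 99.9%) and 3 were switched (0.253%, 0.0522 to 0.737%). In sham blood 568 of 568 were IGHM/IGHD, so that 0 of 568 cells were switched (upper limit 0.528%, from 3 cells as the most that a count of 0 allows). In SCI blood it was 891 of 891 (upper limit of switched cells 0.337%), and in cord 8 of 8. The 3 naive switched B cells were 2 IgA cells, with 8 IGHA1 and 0 IGHM UMIs and with 7 IGHA1 and 5 IGHM UMIs, and 1 IgG cell with 16 IGHG3, 6 IGHE and 2 IGHM UMIs. A further 3 naive B cells and 1 SCI B cell had no assigned isotype. Of these, the naive cell with 20 IGHE and 5 IGHM UMIs held switched genes in excess but was left out by a tie, with 20 IgG UMIs, and with it 4 of 1188 naive B cells were switched (0.337%, 0.0918 to 0.860%). By the same rule 297, 26, 7 and 1 T cells reached 3 IGHM or IGHD UMIs and 0 reached a switched isotype, so that switched calls had no T cell background here.

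Among naive plasma cells 375 of 381 were IGHM/IGHD (98.4%, 96.6 to 99.4%), 4 IgG (1.05%, 0.287 to 2.67%) and 2 IgA (0.525%, 0.0636 to 1.88%), so that 6 were switched (1.57%, 0.580 to 3.40%). The 2 IgA cells held 1197 and 830 IGHA1 UMIs beside 8 and 4 IGHM UMIs, with 392 and 106 JCHAIN UMIs. Of the IgG cells, 1 held 601 IGHG3 and 41 IGHM UMIs with 326 of JCHAIN, and 1 held 273 IGHG1, 47 IGHG3 and 12 IGHM UMIs with 65 of JCHAIN. The other 2 held 67 and 27 IGHG3 UMIs, with 3 and 7 of IGHM and 24 and 15 of JCHAIN. All 7 sham and 12 SCI cells that met the plasma cell rule were IGHM/IGHD, but 3 and 8 of them had little heavy chain RNA and held MS4A1. Without the rule genes, the B list summed to 3533 and 5623 CPM in these sham and SCI cells and the plasma list to 2510 and 2285. The isotype of plasma cells proper in sham and SCI blood thus rests on fewer cells. JCHAIN was thus present in each of the 6 switched plasma cells.

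Low counts of switched genes were far more common in B cells than switched cells were. Within IGHM/IGHD B cells of naive, sham and SCI blood, IGHA1 and IGHA2 together had 0 UMIs in 62.3, 70.4 and 73.8% of cells and 1 or 2 UMIs in 31.3, 22.7 and 21.8%. They had 3 to 9 UMIs in 75, 39 and 38 cells (6.33, 6.87 and 4.26%), and 13 in 1 SCI blood cell. IGHG genes had 0 UMIs in 88.9, 91.5 and 94.1% of these cells and 3 to 9 UMIs in 21, 12 and 16. The cord had IGHA1 in 4 of 8 B cells.

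Ratios of B cell CPM between blood libraries were taken as log2 with 0.5 counts added, for genes whose counts in the 2 libraries summed to 20 or more, and a value past 1 in either direction counted as past the fold. Ratios against the naive library share it and are given side by side, and ratios to SCI blood also mix host sexes. In sham against naive B cells 3 of 10 members were lower past the fold (IGHG1, IGHG4 and IGHE, or 2 of 10 without IGHE when only IGHM/IGHD B cells were used) and 0 higher, where 265 of 10452 genes (2.54%) passed in either direction and 1.85% were lower. In SCI against naive B cells 3 of 10 were lower (IGHG1, IGHG2 and IGHG4, or 2 of 10 without IGHG2 when TMM factors were used) and 0 higher, where 428 of 10649 genes (4.02%) passed and 2.71% were lower. In SCI against sham B cells 1 of 9 members tested was higher (IGHE, or 0 by the mean of per-cell CPM, where IGHE was 0.79) and 0 lower, where 284 of 10375 genes (2.74%) passed and 1.35% were higher. The median of the members was −0.87, −0.70 and −0.13, against −0.03, −0.11 and −0.08 for all genes, and TMM factors moved the SCI against naive median of all genes to −0.00.

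Of the unswitched genes, IGHM was −0.45 (−0.48 to −0.42) in sham and −0.29 (−0.32 to −0.27) in SCI against naive B cells, and 0.15 (0.12 to 0.19) in SCI against sham. The last value rests on few cells, since leaving out the 17, 2 and 3 B cells with at least 100 IGHM UMIs gave −0.40, −0.42 and −0.02. IGHD was 0.23 (0.14 to 0.32) and 0.10 (0.01 to 0.18) against naive, the opposite sign to IGHM. JCHAIN was 0.12 (0.06 to 0.18) in sham and −0.13 (−0.18 to −0.07) in SCI against naive, and −0.24 in SCI against sham. With TMM factors, IGHD and JCHAIN in SCI against naive B cells were 0.21 and −0.02, so that the lower JCHAIN there is of the size of the median shift of all genes.

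Among the switched genes, IGHG1, IGHG4 and IGHE were lower past the fold in sham and IGHG1, IGHG2 and IGHG4 in SCI against naive B cells, while IGHA1, IGHG3 and IGHA2 did not pass in either. IGHA1 was −0.83 (−1.03 to −0.64) in sham and −0.97 (−1.15 to −0.79) in SCI blood, IGHG1 −1.20 (−1.81 to −0.66) and −1.77 (−2.41 to −1.21), and IGHG3 −0.90 (−1.50 to −0.35) and −0.71 (−1.21 to −0.23). IGHG4 was −1.73 (−3.02 to −0.73) and −2.03 (−3.24 to −1.06), IGHG2 −0.91 (−2.26 to 0.21) and −1.08 (−2.29 to −0.02, from 11 and 23 UMIs, and −0.97 with TMM factors), and IGHA2 −0.78 (−1.72 to 0.05) and −0.68 (−1.47 to 0.07). Intervals for IGHA1, IGHG1, IGHG3 and IGHG4 lay below 0 in both comparisons, and those of IGHA2 included 0. IGHE was −1.59 (−2.68 to −0.70) in sham and −0.49 (−1.15 to 0.16) in SCI against naive, and 1.11 (0.17 to 2.22) in SCI against sham. Among B cells assigned to IGHM/IGHD, which leaves out 6 naive cells with the 20 IGHE UMI cell among them, IGHE was −0.40 in sham, not past the fold, and 0.71 in SCI against naive, so that few cells set the size of the former and the sign of the latter. SCI against sham gave −0.14 (−0.36 to 0.08) for IGHA1, −0.57 for IGHG1, 0.19 for IGHG3, −0.16 for IGHG2 and 0.10 for IGHA2. The part that the larger naive background of IGHA1 and IGHG has in these ratios was not tested.

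Beside the switched genes, part of the memory B list passed the fold, where 1.85% of all genes were lower in sham and 2.71% in SCI against naive B cells. In SCI against sham B cells 1.35% of all genes were higher and 2.74% passed in either direction. Of 21 memory genes 0 were higher and 4 lower past the fold in sham against naive (median −0.54), with HOPX −2.21, CD27 −1.76, AIM2 −1.51 and ITGB1 −1.30. In SCI against naive 1 was higher and 5 lower (median −0.52), with AIM2 −2.37, ITGB1 −1.78, CD27 −1.39 and CD70 1.27, and in SCI against sham 2 were higher and 0 lower (HOPX 2.13, CD70 1.78). Of 15 atypical B genes tested 3 were lower in sham (CXCR3 −1.95, ZBTB32 −1.85, ITGAX −1.15) and 4 lower and 1 higher in SCI against naive (CXCR3 −2.84, ZBTB32 −1.58, ITGAX −1.48, LILRB2 −1.25). In SCI against sham 1 of 15 was lower (MPP6 −1.30). Cell cycle genes were lower for 5 of 16 in sham (TYMS −2.22, RRM2 −1.59) and 8 of 16 in SCI against naive (CDK1 −2.52, RRM2 −2.47, TYMS −2.33, MKI67 −1.61). In SCI against sham 2 of 13 were lower (TOP2A −1.39, MKI67 −1.12). Immature and naive B genes had 0 of 20 past the fold in sham and 1 higher in SCI against naive (TCL1B 1.20). Lower in SCI against sham were 2 of 20 (MME −1.32, CD38 −1.11).

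Lists of genes that act on or with the members were read in the same comparisons, where 1.85% of all genes were lower and 2.54% passed in either direction in sham against naive, and 2.71 and 4.02% in SCI against naive. In SCI against sham 1.35% were higher and 2.74% passed in either direction. Of 17 class switching genes tested 0 passed the fold in sham against naive (UNG −0.58) and 1 was lower in SCI against naive (BATF −1.20). Antigen receptor partners, which sit beside membrane IgM and IgD, had 0 of 15 past the fold in each of the 3 comparisons (CR2 0.62 and 0.64 against naive). Of genes for IgA switching and homing 2 of 15 were lower in sham and in SCI against naive (CXCR3 and ITGB1), of germinal centre genes 0 of 7, and of plasma programme genes 2 of 23 were lower in sham (CD27, SLAMF7 −1.19) and 1 of 24 in SCI against naive (CD27). In SCI against sham 1 of 7 germinal centre and 1 of 23 plasma programme genes were lower (CD38 −1.11 in each), and 0 of 17 class switching genes passed. Of immunoglobulin receptors 1 of 9 was higher (MS4A2 2.60) and 1 lower (FCGRT −1.04) in sham against naive, and 2 higher (FCER1A 2.76, MS4A2 2.55) and 1 lower (FCGRT −1.22) of 10 in SCI against naive, and 2 of 10 higher (FCER1A 3.75, FCER1G 1.02) in SCI against sham. FCER1A and MS4A2 are also markers of basophils and mast cells, whose list sum in B cells rose from naive to sham to SCI blood as given above, so that their ratios cannot be told apart from RNA of those cells.

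Receptors for the products of the members were read in the same B cells (these and XBP1 were chosen after their values were seen). FCMR, the IgM receptor, was 170, 159, 163 and 80.3 CPM, with FCGR2B, which binds IgG, at 202, 193, 171 and 131 and FCER2, which binds IgE, at 107, 79.3, 77.3 and 21.9. FCMR, FCGR2B, FCER2 and FCRL5 were each lowest in cord, where the values rest on 8 B cells. FCRL5 was 112, 137, 86.7 and 73.0 CPM, PIGR, which carries J chain polymers across epithelium, had 0, 2, 2 and 0 UMIs, and FCAMR had 0. In naive plasma cells, with the highest IGHM, FCMR was 12.1 CPM (9.39 to 15.4), below its level in naive B cells and in T cells (75.4, 71.0, 64.5 and 60.0).

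No B cell of sham or SCI blood was called switched, so IGHM/IGHD B cells with a UMI of a member after thinning were set against those without it, in each blood library. For IGHA1, 175 and 1002 cells were compared in naive, 42 and 526 in sham, and 63 and 828 in SCI blood, at median depths of 3798 and 3552, 5931 and 5678.5, and 4917 and 4878 UMIs. Past the fold in the same direction in all 3 libraries were 14 of 8709 genes (0.161%), 4 higher and 10 lower with IGHA1. Highest were ZBTB32 (1.16, 1.30 and 1.54 in naive, sham and SCI), DAG1 (1.10, 1.62, 1.56), SLC39A13 (1.04, 1.04, 1.04) and RBM34 (1.03, 1.10, 1.30), followed by CD27, AIM2, SH3PXD2A (1.19, 0.99, 0.97) and AMIGO2 (0.88, 1.27, 1.47). Lowest with IGHA1 were S100A9, S100A8, S100A12, TCL1B, EAF1, AL353194.1, TSPAN13 (−1.14, −1.19, −1.13) and SPOCK2. With IGHA1, EAF1 and AL353194.1 had 0 UMIs in sham and SCI blood and TCL1B and SPOCK2 had 0 in sham, so these ratios rest on few counts. The 4 higher genes also had few counts, since with a filter of at least 50 counts 0 genes were higher and 5 lower. The 3 S100 genes rest on 3, 1 and 1 B cells with at least 5 UMIs of S100A8, S100A9 and LYZ together, and without these cells S100A9 was 0.41, 1.15 and 1.56. When cells were grouped by an IGHA1 UMI before thinning, 14 genes passed again, but 4 of them were shared (ZBTB32 higher, S100A12, TCL1B and TSPAN13 lower), with DAG1, SLC39A13 and RBM34 lost and AIM2 and CD27 past the fold.

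Marker lists of other cells also differed with and without IGHA1. The basophil or mast list summed to 0 and 7.04 CPM in naive, 0 and 26.5 in sham, and 5.86 and 80.2 in SCI blood, the monocyte list to 51.9 and 522, 31.4 and 290, and 23.4 and 371, and the plasma list to 369 and 316, 326 and 358, and 562 and 295. Genes of the memory and immature lists, of which CD27 is also in the plasma programme list, were then read with and without IGHA1. CD27 was 86.5 CPM with and 43.8 without IGHA1 in naive blood, 35.3 and 13.1 in sham, and 58.6 and 16.0 in SCI blood, which gives 0.99 (0.53 to 1.42), 1.49 (0.21 to 2.49) and 1.89 (1.07 to 2.60). AIM2 with IGHA1 was 1.36 (0.87 to 1.82), 0.98 (−0.64 to 2.13) and 2.94 (1.80 to 3.97), and ITGB1 0.74 (0.52 to 0.95), 0.75 (0.18 to 1.23) and 1.09 (0.58 to 1.55). TCL1A was 424 with and 709 CPM without IGHA1 in naive, 475 and 865 in sham, and 486 and 759 in SCI blood, which gives −0.74 (−0.92 to −0.57), −0.86 (−1.14 to −0.60) and −0.64 (−0.88 to −0.42). The intervals of CD27, ITGB1 and TCL1A with IGHA1 lay on 1 side of 0 in the 3 libraries, as did VPREB3 (−0.92, −0.81, −0.83). Over the lists with IGHA1, the median of 19 memory genes was 0.38, 0.49 and 0.68, with 0 past the fold in all 3 libraries, and that of 18 immature and naive genes −0.23, −0.18 and −0.35, with 1 lower (TCL1B). The medians of all genes were 0.02, 0.04 and 0.06.

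**Figure D4:**
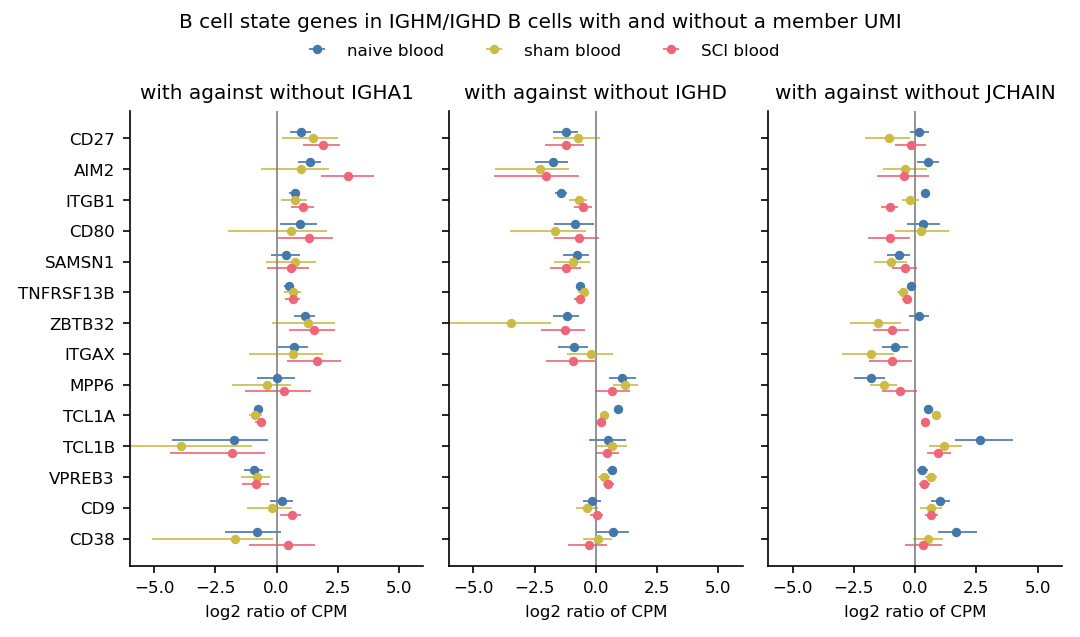
Log2 ratio of B cell state genes in IGHM/IGHD B cells with against without a UMI of IGHA1, IGHD or JCHAIN after thinning, in the 3 blood libraries, with conditional binomial intervals.

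The same comparison was made for IGHD. With IGHD against without it (431 and 746, 226 and 342, 351 and 540 cells), 4 of 8709 genes (0.0459%) passed the fold in all 3 libraries, all lower: AIM2, ZBTB32 (−1.17, −3.47, −1.26), ANXA1 (−1.17, −1.43, −1.17) and DHCR7 (−1.13, −2.21, −1.64). Of these, AIM2 alone passed again when cells were grouped by an IGHD UMI before thinning, where S100A8, S100A9, S100A12 and FCER1G were higher with IGHD. AIM2 was 15.0 CPM with and 51.4 without IGHD in naive, 3.71 and 19.8 in sham, and 2.29 and 10.5 in SCI blood, or −1.75 (−2.47 to −1.14), −2.30 (−4.11 to −1.08) and −2.05 (−4.16 to −0.70). CD27 with IGHD was −1.21, −0.72 (−1.75 to 0.17) and −1.21, and SAMSN1 −0.78, −0.93 and −1.20. Next lowest with IGHD were CCDC9, FCER1G, CYTOR and EBI3, and the 8 highest were CLCF1 (0.97, 1.70, 1.46), TCTN1 (0.74, 0.75, 1.24), LARS2, MPP6 (1.09, 1.21, 0.68), ZNF117, KIF27, TRMT44 and FMNL3. TCL1A was higher with IGHD, at 0.90 (0.79 to 1.00), 0.33 (0.23 to 0.44) and 0.23 (0.13 to 0.32), and so was VPREB3 (0.66, 0.34, 0.52). The memory list with IGHD had a median of −0.76, −0.24 and −0.36 and the immature and naive list 0.39, 0.10 and 0.15. Markers of other cells also differed in these groups. The monocyte list summed to 58.8 CPM with and 650 without IGHD in naive, 47.5 and 413 in sham, and 888 and 25.4 in SCI blood, and the basophil or mast list to 0.653 and 8.67 in naive and 2.86 and 117 in SCI blood, with 39.1 without and less with IGHD in sham. The basophil or mast list was 10.4 with and 0.937 without JCHAIN, 3.91 and 46.5, and 1.67 and 151. The part that basophil or mast cell RNA has in these ratios was not tested. IGHG1 itself was lower with IGHD, by −1.06 (−1.92 to −0.33), −2.15 (−4.26 to −0.80) and −2.32 (−4.88 to −0.83) in naive, sham and SCI blood, from 18, 4 and 3 UMIs with and 75, 31 and 29 without IGHD. IGHG3 was 0.15 (−0.60 to 0.85), 0.05 (−1.01 to 1.04) and −1.14 (−2.23 to −0.24), so it was not lower in naive or sham blood, and the split among IGHG genes is uncertain.

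For JCHAIN in B cells, 0 of 18 immature and naive genes passed the fold in all 3 libraries, with medians of 0.07, 0.18 and 0.18. The plasma list summed to 363 CPM with and 281 without JCHAIN in naive, 408 and 300 in sham, and 359 and 268 in SCI blood. With JCHAIN against without it (626 and 551, 302 and 266, 463 and 428 cells), 7 of 8709 genes (0.0804%) passed in all 3 libraries, with GAS6 (1.43, 1.29, 1.66) and CDKN2B (1.56, 1.66, 1.14) higher and S100A9, S100A12, S100A8, FCER1G and MNDA lower. Without the 5 B cells rich in S100 and LYZ UMIs, 2 passed with JCHAIN, both higher. When cells were grouped by a JCHAIN UMI before thinning, GAS6 and CDKN2B no longer passed, and S100A8, S100A9, S100A12 and FCER1G passed in the opposite direction, higher with JCHAIN. TCL1B was 24.6 CPM with and 3.75 without JCHAIN in naive, 37.4 and 16.1 in sham, and 44.7 and 23.0 in SCI blood, or 2.64 (1.65 to 3.99), 1.20 (0.55 to 1.92) and 0.95 (0.47 to 1.46). TCL1A with JCHAIN was 0.55 (0.44 to 0.65), 0.84 (0.73 to 0.95) and 0.42 (0.33 to 0.52), and ITGAX −0.81, −1.80 and −0.95. Next highest with JCHAIN were ENPP2 (1.94, 0.96, 1.63), CCL17 (0.94, 1.11, 1.35), SMKR1 (0.74, 1.42, 1.06), CBLN3 and GTF2IRD2, and next lowest PRNP and ASCL2. IGHM was 0.31, 0.38 and 0.63 with JCHAIN, −0.41, −0.23 and −0.42 with IGHD, and 0.56, −0.15 and 1.30 with IGHA1. Without B cells of at least 100 IGHM UMIs these became 0.10, 0.20 and 0.15 with JCHAIN, −0.20, −0.08 and 0.00 with IGHD, and 0.16, −0.03 and 0.18 with IGHA1, so that few cells set much of their size. The median of the atypical list with JCHAIN was −0.48, −0.54 and −0.20.

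B cells with any IGHG UMI were few (45 and 1132, 14 and 554, 11 and 880 cells with and without), and their ratios are noisier. With IGHG 92 of 8709 genes (1.06%) passed the fold in all 3 libraries, 72 higher and 20 lower, where the median of all genes was 0.10, 0.17 and 0.25, and 15 of them passed again when cells were grouped by an IGHG UMI before thinning. Highest were ITPK1, TCTEX1D2, KANTR, NAT1, UBASH3B, BMF, PRAG1 and MTMR2, and lowest S100A9, S100A8, CCL4, IFI27, MS4A6A, AL139020.1, MCMBP and ARRDC1. In the 11 SCI cells ITPK1 and TCTEX1D2 had 3 UMIs each, the other 6 of the highest had 1 each and the 8 lowest had 0, so these ratios rest on few counts. Of 19 memory genes 3 were higher with IGHG in all 3 libraries: CD80 (1.54, 1.53, 1.22), BHLHE41 (1.11, 2.62, 2.51) and ITGB1 (1.00, 1.52, 2.42), of which CD80 had 1 UMI in the SCI cells with IGHG and ITGB1 had 17. Of 13 atypical genes 3 were higher with IGHG: TBX21 (1.07, 2.11, 2.68), ITGAX (1.04, 2.15, 2.63) and ZBTB32 (1.54, 1.01, 2.14), on 1, 3 and 3 SCI UMIs. Markers of other cells also differed. The natural killer list summed to 77.9 CPM with and 42.2 without IGHG in naive, 167 and 14.8 in sham, and 18.8 and 16.3 in SCI blood. The monocyte list summed to 41.5 and 468, 62.5 and 277, and 75.3 and 349. The part that RNA of those cells has in these ratios was not tested. TCL1A was lower past the fold with IGHG in the 3 libraries (−1.63 in sham and −1.55 in SCI blood), and lower with IGHA1 as given above. JCHAIN with IGHG was −0.46 (−0.70 to −0.23), −0.59 (−0.95 to −0.27) and −0.27 (−0.76 to 0.14), none past the fold and the last with 0 in its interval.

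Joint detection of members was also read in these cells. JCHAIN was found in 51.4% of IGHM/IGHD B cells with IGHA1 and 53.5% of those without it in naive blood, 47.6 and 53.6% in sham, and 41.3 and 52.8% in SCI blood, with overlapping intervals. By level, the log2 ratio of JCHAIN with IGHA1 was −0.09, −0.40 and 0.82 (0.69 to 0.94 in SCI blood). Without B cells of at least 100 IGHM UMIs it was −0.27, −0.38 and −0.22, so few cells set its sign in SCI blood. IGHD was found in 40.0 and 36.0%, 31.0 and 40.5%, and 30.2 and 40.1% of cells with and without IGHA1, again overlapping. JCHAIN with and without IGHD was found in 55.5 and 51.9%, 52.7 and 53.5%, and 53.8 and 50.7%.

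Patterns of log2 CPM were compared over 12 class and library sums with at least 20 cells, where B cell sums held only IGHM/IGHD B cells (1184, 568 and 891). The pattern closest to that of JCHAIN among 15215 genes was IGLC2 (Pearson r 0.993), then IGLC3 (0.979), IGHM (0.976), IGHA1 (0.964) and MZB1 (0.952). IGHM was closest to IGLC2 (0.978), JCHAIN (0.976), IGLC3 (0.969), IGHA1 (0.949) and CD38 (0.947). IGHD was closest to FAM129C (0.997), GEN1 (0.990), CLEC17A (0.989), LINC01781 (0.988) and VPREB3 (0.988). IGHA1 was closest to IGHG1 (0.978), PKHD1L1 (0.976), MZB1 (0.971), BHLHE41 (0.966) and JCHAIN (0.964), and IGHG1 to LINC02384 (0.978), IGHA1 (0.978), MZB1 (0.964), AC104024.1 (0.940) and JCHAIN (0.937). Naive blood alone gave a plasma cell point, and these values describe few points that share libraries. MZB1 was also used to choose plasma cells, so its likeness to members draws on the class rule.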

How the data were processed

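The authors deposited count matrices (Cell Ranger 3.1.0, combined human and mouse reference), used as given, with no depth filter. CPM are UMIs summed over a class per 1000000 human UMIs. Shares used each cell thinned to 1000 human UMIs. Ratios added 0.5 counts and had conditional binomial intervals. No test was possible with 1 library per condition. Named genes are the 10 members, up to 4 genes of largest absolute value per list and comparison, the 8 highest and 8 lowest genes of B cells with against without a member by the least extreme blood library (immunoglobulin and T cell receptor genes left out), and the 5 genes most like JCHAIN, IGHM, IGHD, IGHA1 and IGHG1. The 10 lists were class switching, immature and naive B, memory B, atypical B, germinal centre, plasma programme, antigen receptor partners, immunoglobulin receptors, IgA switching and homing, and cell cycle. Members and lists were chosen with earlier results of these data known. Differences between libraries cannot be told apart from effects of host, host sex, donor, sort or capture. Software was Python with scipy and Scrublet, and edgeR for TMM factors.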

Additional observations from a re-analysis of the deposited data

Results flagged for a closer look

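Mouse Ighm, outside the human genes used above, was found above its naive level of 4.10 UMIs per 1000000 mouse UMIs (2.18 to 7.00, 13 UMIs) in the 3 other libraries: 68.1 in sham blood (61.8 to 74.9, 428 UMIs), 24.4 in SCI blood (19.4 to 30.3, 82 UMIs) and 17.8 in SCI cord (13.1 to 23.5, 48 UMIs). No interval overlapped that of naive blood. The UMIs lay in 10, 295, 60 and 12 barcodes of naive, sham, SCI blood and cord, of which 8 of 1411, 271 of 1990, 56 of 1230 and 12 of 93 non-human barcodes held at least 1, with at most 2, 7, 4 and 15 in 1 barcode. Mouse Ighd, Ighg1, Ighg2b, Ighg2c, Ighg3, Igha, Ighe and Jchain had 0 UMIs in each library. The source of the Ighm UMIs was not tested.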

How the results depend on the processing

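Of 964 values under other settings, 773 kept within their interval or within 1.5 times a count, and 191 moved. No ratio past the fold changed sign, and of 232 log2 ratios of members under other settings 2 did: IGHE in SCI against naive B cells (0.71 with only IGHM/IGHD B cells) and IGHM in SCI against sham (−0.02 without B cells of 100 or more IGHM UMIs). T cells with IGHM (naive, sham, SCI blood) were 22.1, 2.30 and 3.17% with MS4A1 and CD79A allowed, 54.0, 8.30 and 6.95% without thinning and 35.1, 2.98 and 2.78% thinned to 2000. Sham gave 1.79% at over 90% human UMIs and 1.68% under a depth and mitochondrial filter, which gave 0 in cord. Without T cells holding 3 or more IGHM UMIs naive gave 17.4% and cord 0. B cells with IGHA1 were 36.5, 28.9 and 24.4% without thinning, 24.5, 13.6, 12.2 and (cord) 0% thinned to 2000, and 12.5% in naive under the depth filter. Naive B cells were 18.7% of human barcodes without Scrublet marks and 16.8% at 2 or more MS4A1 and CD79A UMIs. Plasma cells were 4.90, 0.0402 and 0.0477% at MZB1 of 5 and TNFRSF17 of 2, and 0.0637% in SCI blood at 100 or more heavy chain UMIs. Genes past the fold (sham against naive, SCI against naive, SCI against sham) were 4045, 4222 and 4044 with no count filter and 25, 76 and 48 at 100 counts, with 1, 1 and 0 members, and SCI against sham gave 0 members by the mean of per-cell CPM. With against without a member, genes past the fold were 45 for IGHG, 12 for IGHD and 17 for JCHAIN by UMIs before thinning (14 for IGHA1), of which 15, 1, 0 and 4 were shared in the same direction and 4 for JCHAIN in the opposite, 27 for IGHA1, 209, 16 and 12 at 10 counts, 5, 32, 1 and 3 at 50 counts, and 2 for JCHAIN without cells rich in S100 and LYZ UMIs. Spearman rho shared 3, 2, 1 and 2 of the 5 genes for JCHAIN, IGHM, IGHD and IGHA1. A looser count filter tests more genes and a stricter fewer; for the other changes the cause was not tested. The comparison of switched with IGHM/IGHD B cells (20 or 10 counts, isotype at 3 or 5 UMIs) was not run, since no B cell of sham or SCI blood was called switched. The comparisons with and without a member, totals without immunoglobulin, ribosomal or mitochondrial genes in ratios, and the settings that leave out cells by IGHM, heavy chain, S100 and LYZ UMIs, shared barcodes or the barcode with most IGHM, isotype ties counted as switched, and marker lists without class rule genes were chosen after seeing the data. A median depth of 3569 UMIs in naive B cells and 8 cord B cells limit the detection of IGHG, IGHE and IGHA2.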
